A study of Homo sapiens with 7 samples.

Results

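The 10 genes described here encode enzymes of glycolysis: HK2, GPI, PFKP, ALDOA, TPI1, GAPDH, PGK1, PGAM1, ENO1 and LDHA. They were chosen by name, as a gene for each step from glucose to lactate except pyruvate kinase. No measured value set the choice, but earlier results of these data were known when it was made. All 10 were listed among the 26175 genes of the RNA-seq table. Transcription start sites (TSSs) were taken for a gene when a called gene TSS lay on its strand inside its locus, widened by 1000 nts at each end, which gave 12 gene TSSs in 9 genes out of 10391 called in all. With them came 8 of the 5519 upstream antisense TSSs (uaTSSs) and 4 of the 2956 downstream antisense TSSs (daTSSs).

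The cells were T-47D, a luminal breast cancer line, in the labels. The study's methods call them T47D/A1-2, a subline with added rat glucocorticoid receptor and an MMTV-driven luciferase reporter in its genome. All 7 libraries came from 1 growth condition, in which cells were cultured with 10% FBS and then held in medium with 5% charcoal dextran-treated serum for 24 hours or longer, so no condition could be compared with another. TSSs came from replicate 1 of 2 Start-seq libraries, which capture the capped 5′ ends of short nuclear RNA, and expression from 3 poly-A RNA-seq replicates that had been merged into 1 value a gene. No value below therefore has an error between replicates, and neighbouring values in an order of levels cannot be told apart or called equal. Among 10 luminal markers, FPKM ranged from 1.90 for TFF1 to 1140 for KRT8, and 4 basal or mesenchymal markers stood at 0 to 0.864.

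Glycolysis splits glucose into a pair of pyruvate molecules and yields ATP and NADH in the cytosol. Hexokinase and phosphofructokinase spend ATP in the upper part of the pathway, and phosphoglycerate kinase and pyruvate kinase return it in the lower part. Lactate dehydrogenase then regenerates NAD+ by reducing pyruvate. Many genes of the pathway are known targets of hypoxia-inducible factors, which bind a short core sequence, and of MYC, which binds E-boxes. Tumour cells often carry out glycolysis when oxygen is present.

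The sequences that the results turn on are shown first. They were read from hg19 (GRCh37) in the direction of the gene, and each ends 20 nts into the transcribed side, counting the called base as the first of these 20. Capitals mark the letters ACGTG or GCGTG (the core of a hypoxia response element), GGGCGG (the core of a GC box) or CCAAT on either strand, and TATAA or TATAT on the strand shown. The promoter of PGK1 (chrX:77359493-77359762, plus strand) and that of the upstream call at LDHA (chr11:18415860-18416129, plus strand) are shown from 250 nts upstream because their hypoxia response cores lay in groups. Those of TPI1 (chr12:6976598-6976697, plus strand), GAPDH (chr12:6642659-6642758, plus strand) and the downstream call at ALDOA (chr16:30076353-30076452, plus strand) are shown from 80 nts upstream because their calls were offset from the annotated start.
PGK1: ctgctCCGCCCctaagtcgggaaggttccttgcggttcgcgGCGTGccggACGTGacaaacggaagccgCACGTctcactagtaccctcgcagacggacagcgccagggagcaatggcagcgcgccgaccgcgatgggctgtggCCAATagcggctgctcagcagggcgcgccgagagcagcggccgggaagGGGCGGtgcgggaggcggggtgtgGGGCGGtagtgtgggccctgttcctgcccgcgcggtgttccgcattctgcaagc
LDHA upstream call: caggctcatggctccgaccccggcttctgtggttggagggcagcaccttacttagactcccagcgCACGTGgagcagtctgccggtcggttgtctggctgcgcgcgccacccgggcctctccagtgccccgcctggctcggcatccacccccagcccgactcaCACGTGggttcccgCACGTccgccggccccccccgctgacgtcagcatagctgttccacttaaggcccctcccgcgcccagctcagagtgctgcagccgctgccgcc
TPI1: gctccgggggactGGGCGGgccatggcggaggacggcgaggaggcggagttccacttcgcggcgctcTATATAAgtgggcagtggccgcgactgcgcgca
GAPDH: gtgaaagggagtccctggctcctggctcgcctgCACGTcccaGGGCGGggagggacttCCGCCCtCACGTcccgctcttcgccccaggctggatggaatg
ALDOA downstream call: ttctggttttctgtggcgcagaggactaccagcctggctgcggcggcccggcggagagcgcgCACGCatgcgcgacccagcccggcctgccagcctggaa

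Antisense calls are shown as 30 nts read in the antisense direction, with the base before the call and the called base in capitals. They were chosen because the letters C and A stood at these positions in most of the uaTSSs. The uaTSSs shown are those of the downstream call at PFKP (chr10:3110347-3110376), the upstream and downstream calls at ALDOA (chr16:30064225-30064254 and chr16:30076350-30076379), TPI1 (chr12:6976531-6976560), PGAM1 (chr10:99185800-99185829) and the upstream call at LDHA (chr11:18415940-18415969), all on the minus strand. The daTSS of GAPDH (chr12:6643181-6643210, minus strand) is shown beside them because it lay upstream of the annotated gene.
PFKP uaTSS: ggggggcgggggggCActtaggaagtgatc
ALDOA upstream call, uaTSS: ggtcggatcctcatCAgatgccggacgttg
ALDOA downstream call, uaTSS: agtcctctgcgccaCAgaaaaccagaatgc
TPI1 uaTSS: gccgcccgatgatgCActgttccgacgttc
PGAM1 uaTSS: gcgtcctccctctcCAgtcccgcgtcggtc
LDHA uaTSS: gtggcgcgcgcagcCAgacaaccgaccggc
GAPDH daTSS: gggaacttctcctcGAggctctgcggtagt

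Expression of the 10 genes was asked first, as FPKM, fragments scaled by transcript length and by library size, which can be set side by side between genes. ALDOA stood highest at 873 FPKM and HK2 lowest at 9.95, an 87.7-fold range. The median over the 10 genes was 245 FPKM, against 0.528 over all listed genes, of which 7888 stood at 0, and 13.6 over the 10449 listed genes with a called gene TSS. Together the 10 genes held 3010 FPKM, or 0.701% of the sum over all genes. Of the 10, 9 lay in the highest 10% of listed genes and 6 in the highest 1%.

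The upper part of the pathway began with the lowest value. HK2, the inducible hexokinase that phosphorylates glucose, stood at 9.95 FPKM, rank 7363, with 71.9% of listed genes below it. GPI, which turns glucose 6-phosphate into fructose 6-phosphate, stood at 59.4 FPKM, rank 1791. PFKP, the platelet form of phosphofructokinase, stood at 80.7 FPKM, rank 1247. These 3 genes lay below all of the other 7, whose lowest value was 98.8 FPKM.

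ALDOA, which cleaves fructose 1,6-bisphosphate into 2 triose phosphates, ranked 12 among all listed genes. TPI1 interconverts these triose phosphates and stood at 231 FPKM, rank 236. GAPDH oxidises glyceraldehyde 3-phosphate and stood at 390 FPKM, rank 80. All 3 genes stood above 99% of listed genes, as did PGK1, ENO1 and LDHA.

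PGK1, which makes ATP from 1,3-bisphosphoglycerate, stood at 258 FPKM, rank 180. PGAM1, which moves the phosphate of 3-phosphoglycerate, stood at 98.8 FPKM, rank 935, and was the lowest gene of the lower pathway. ENO1, which forms phosphoenolpyruvate, stood at 712 FPKM, rank 20. LDHA, which makes lactate, stood at 298 FPKM, rank 134. GAPDH, PGAM1 and several of the others have near-identical processed copies in the genome, and the split of reads between copies by the authors' alignment is uncertain. PGAM4, a copy of PGAM1, was listed at 7.95 FPKM.

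**Figure D1:**
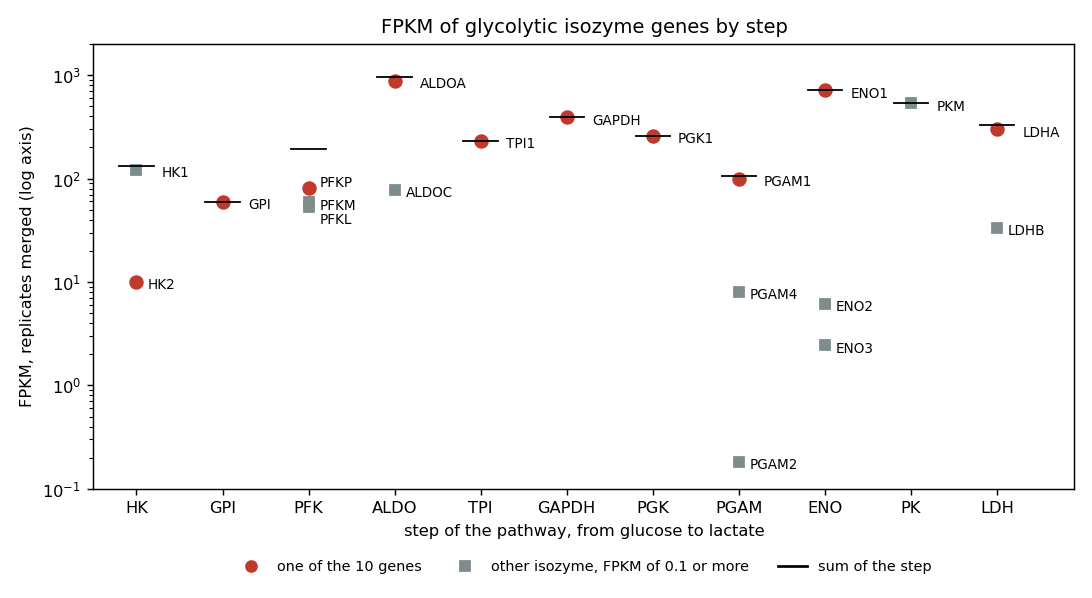
FPKM of the glycolytic isozyme genes (log axis, 1 merged value a gene) by step of the pathway. Circles are the 10 genes, squares other isozymes of at least 0.1 FPKM, and bars the sum of each step. HK2 lies under HK1, and the other steps with a member lead with that member. The GPI and TPI steps have only 1 listed gene each.

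Levels were then set within each step, over 30 isozyme genes fixed by name, 20 of them outside the 10. Of the 20, 9 stood at 1 FPKM or more, 5 at 0, and the median was 0.0981 FPKM. HK2 was the only one of the 10 that did not lead its step. GPI and TPI1 were the only listed genes of their steps and could not do otherwise. HK1, the constitutive hexokinase, stood at 122 FPKM, 12.2-fold above HK2, which held 7.57% of the 132 FPKM of its step. HK3 and HKDC1 were each under 1 FPKM.

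Phosphofructokinase was the step shared most evenly. PFKP held 41.8% of 193 FPKM, beside PFKM at 58.8 FPKM and PFKL at 53.4 FPKM. In the aldolase step ALDOA held 91.8% of 950 FPKM and stood 11.3-fold above ALDOC at 77.5 FPKM. LDHA held 90.0% of 332 FPKM and stood 8.96-fold above LDHB at 33.3 FPKM, the form that favours pyruvate.

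PGAM1 held 92.4% of its step, with PGAM2, the muscle form, at 0.183 FPKM. ENO1 held 98.8% of 720 FPKM, beside ENO2, the neuronal form, at 6.15 FPKM and ENO3, the muscle form, at 2.44 FPKM. The testis forms GAPDHS and PGK2 were listed at 0. Pyruvate kinase has no gene among the 10, and PKM stood at 533 FPKM.

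**Figure D2:**
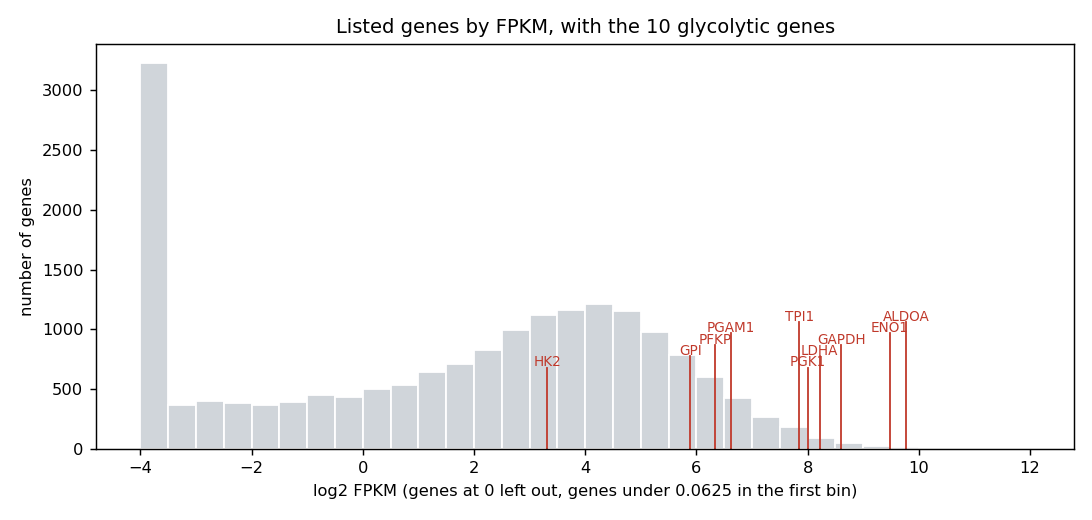
Number of listed genes by log2 FPKM, in grey, with a red line for each of the 10 genes (genes at 0 are left out). HK2 at 9.95 FPKM lies within the bulk of expressed genes, and the other 9 lie at 59.4 FPKM or above, on the right side of the distribution.

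Genes around the pathway gave a frame for these levels. Of 18 transport genes, 10 stood at 1 FPKM or more (median 2.74), led by BSG, a chaperone of lactate carriers, at 221, the lactate exporter SLC16A3 at 58.6 and the fructose carrier SLC2A5 at 44.5. Of 11 genes that control flux, 8 did (median 11.1), led by the kinase PDK2 at 29.8 and the phosphofructokinase regulators PFKFB3 at 19.5 and PFKFB4 at 15.9. All of these genes lay below the 231 FPKM of TPI1, but they did not lie below all of the 10. BSG lay above PGAM1 at 98.8 FPKM, and every gene named here lay above HK2 at 9.95 FPKM.

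Of 8 gluconeogenic genes, 4 stood at 1 FPKM or more and 4 at 0. FBP1, which reverses the phosphofructokinase step, stood at 113 FPKM, above PFKP, followed by G6PC3 at 68.3 and PCK2 at 27.5. Of 9 pentose phosphate genes, 7 stood at 1 FPKM or more (median 59.5), led by TKT at 174, TALDO1 at 159 and PGD at 126. Of 6 pyruvate dehydrogenase genes, 5 did (median 40.4), led by PDHB at 73.3, PDHA1 at 60.7 and DLAT at 41.6. Of 14 hypoxia factors and targets, 13 did (median 18.4), led by HIF1A at 46.1, BNIP3L at 38.1 and CA12 at 38.0.

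Called gene TSSs of the members were examined next. A gene TSS was called for 9 of the 10 genes, against 47.8% of the 21878 listed genes whose strand was known. A call counted for every listed gene on its strand whose widened locus held it. The 10449 listed genes with a call therefore outnumber the 10391 gene TSSs, and the shares of listed genes below include shared calls. HK2 had no call. Its annotated start lies at 75061254 on chromosome 2, and the nearest called gene TSS was 125 kb away, at POLE4, with no uaTSS or daTSS nearer than 125 kb either. Among the 1349 listed genes closest to HK2 in level, from 7.96 to 12.4 FPKM, 82.4% had a call. The annotated start of HK2 lies in a CpG island of 1899 nts, with 67.0% GC in the surrounding 100 nts and 3 hypoxia response cores.

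GPI, TPI1, GAPDH, PGK1, PGAM1 and ENO1 had 1 call each, and PFKP, ALDOA and LDHA had 2. This is 3 of the 9 genes with a call, against 11.2% of all listed genes with a call. The calls lay 837 nts apart at PFKP, 11962 nts at ALDOA and 1788 nts at LDHA. Calls of the same gene share a locus and are not independent.

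Most calls lay at or close to the start of a transcript in GENCODE, though not always the most upstream one of the gene. The call was at the first base of an annotated transcript in GPI (34856101 on chromosome 19), at the upstream call of PFKP (3109740 on chromosome 10) and at the upstream call of LDHA (18416110 on chromosome 11). It lay 2 nts upstream in PGK1 (77359743 on chromosome X), 38 nts upstream in PGAM1 (99186012 on chromosome 10) and 21 nts downstream in ENO1 (8939130 on chromosome 1, minus strand). In all, 8 of the 12 calls lay within 50 nts of a transcript start of a protein-coding gene on their strand. The share over all gene TSSs was 74.5%. The downstream calls of LDHA and PFKP lay 73 nts downstream and 101 nts upstream of such a start.

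GAPDH lay outside this pattern. Its call, at 6642739 on the plus strand of chromosome 12, was 939 nts upstream of the nearest annotated GAPDH start, 832 nts before the locus of the RNA-seq table and outside any annotated gene. Whether it starts GAPDH or another transcript was not tested, and it is counted under GAPDH by its position alone. Of the 12 calls, only this one lay over 500 nts from the nearest transcript start of a protein-coding gene on its strand. The share over all gene TSSs was 5.36%. GAPDH-DT, a noncoding gene on the opposite strand, starts 75 nts upstream of the call. The CpG island of 1346 nts that covers the annotated GAPDH start begins 523 nts downstream of the call.

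ALDOA had its calls in different settings. The upstream call, at 30064471 on chromosome 16, lay 60 nts inside the 5′ end of the ALDOA locus of the RNA-seq table. In the GENCODE models it lay 1 nt before a start of ENSG00000285043, a protein-coding gene model that overlaps ALDOA. The nearest start under the name ALDOA in those models was 11014 nts farther downstream. The downstream call, at 30076433, lay in an intron of ALDOA, 373 nts downstream of its nearest annotated transcript start at 30076060. The FPKM table gives a single value for the whole locus, so the share of the 873 FPKM that came from either call is unknown.

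TPI1 was called at 6976678 on chromosome 12, 17 nts upstream of its nearest annotated start. The letters TATATAA in its sequence began 13 nts upstream of the called base and 30 nts upstream of the annotated start. A search of TATAA and TATAT with the first base 35 to 20 nts upstream of the call therefore did not find them, and found no match at any of the 12 calls, against 3.04% of all gene TSSs. The search of the shown sequence was made after this offset was seen.

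Antisense TSSs were called at most of these promoters. A uaTSS was called at 8 of the 12 gene TSSs (66.7%, exact 95% binomial interval 34.9% to 90.1%), against 53.1% of all gene TSSs. A daTSS was called at 4 of the 12 (33.3%, interval 9.92% to 65.1%), against 28.4%. Both intervals hold the background share, cover counting error only and treat the 12 calls as independent, although PFKP, ALDOA and LDHA have 2 each. Neither was called at 3 of the 12 (GPI, the upstream call of PFKP and the downstream call of LDHA), against 35.9%.

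The upstream call of ALDOA, TPI1 and PGAM1 had both kinds of antisense TSS, 3 of the 12, against 17.5% of all gene TSSs. GAPDH had a daTSS alone. The other 5 had a uaTSS alone, at the downstream calls of PFKP and ALDOA, at PGK1, at ENO1 and at the upstream call of LDHA. PFKP and LDHA thus each had a call with a uaTSS and a call to which no antisense TSS was assigned. The uaTSS of PFKP, at 3110361, lay between the calls of this gene. It was therefore also antisense and downstream of the upstream PFKP call, inside the stretch searched for daTSSs. The authors' filter drops a daTSS that could be the uaTSS of another start, and whether it acted here was not tested. The upstream PFKP call thus cannot be read as lacking antisense initiation downstream of it.

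Distances of uaTSSs ran from 69 to 295 nts upstream. The nearest was at the downstream call of ALDOA (69 nts), followed by TPI1 (133 nts), LDHA (156 nts) and PGAM1 (198 nts). PFKP (216 nts), the upstream call of ALDOA (232 nts), ENO1 (255 nts) and PGK1 (295 nts) were farther. Their median was 207 nts, close to the 200 nts of all uaTSSs, whose quartiles were 127 and 329.5 nts, and all but that of the downstream ALDOA call lay between those quartiles.

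For daTSSs the distances were 456 nts at GAPDH, 642 nts at the upstream call of ALDOA, 815 nts at TPI1 and 891 nts at PGAM1. The median of 728.5 nts lay above the 507 nts of all daTSSs and below their upper quartile of 804.25 nts. TPI1 and PGAM1 lay beyond that quartile. The daTSSs of TPI1 and PGAM1 fell in exons of these genes, that of ALDOA in an intron of ENSG00000285043, and that of GAPDH in no gene. The daTSS of GAPDH, at 6643195, lay 483 nts upstream of the annotated GAPDH start and 67 nts upstream of its island.

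**Figure D3:**
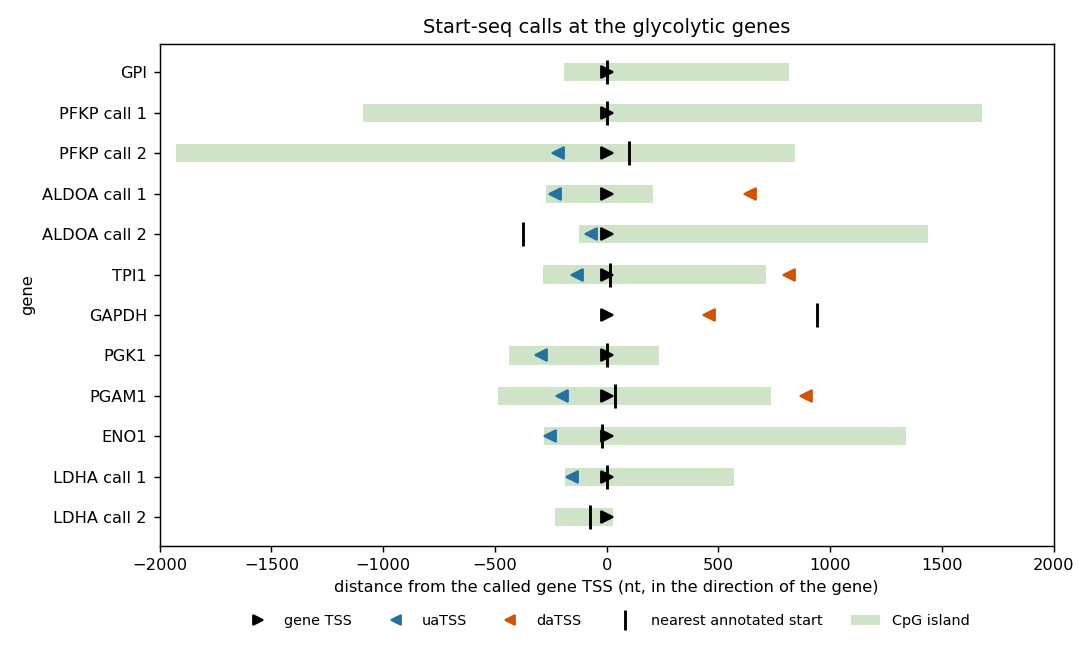
Start-seq calls by distance from each called gene TSS (nts, positive in the direction of the gene), with the CpG island over the call in green and the nearest annotated start of the gene as a bar. All 8 uaTSSs lie inside an island, the 4 daTSSs lie outside, and GAPDH has no island over its call. The nearest annotated start for the upstream ALDOA call lies beyond the axis.

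CpG islands covered 11 of the 12 gene TSSs, against 82.7% of all, and GAPDH was the exception. Island lengths ran from 258 nts at the downstream call of LDHA to 2769 nts at PFKP, where 1 island held both calls. All 8 uaTSSs lay inside the island of their gene TSS, against 80.2% of all such uaTSSs. They lay 24 to 1710 nts from its upstream edge, nearest at 24 nts in ENO1, 31 nts in LDHA and 38 nts at the upstream call of ALDOA.

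The daTSSs stood on the other side of the edge. None of the 3 whose gene TSS lay in an island was inside it, against 56.1% of all such daTSSs. They lay past the downstream edge by 100 nts in TPI1, 155 nts in PGAM1 and 435 nts in ALDOA. With 3 daTSSs this is a description, and distance was not held equal. GC content in the 100 nts around the call ran from 62% to 79% with a median of 67%, against 68% over all gene TSSs, and was highest at the upstream call of PFKP.

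Some uaTSSs lay close to annotated starts of neighbouring genes, and whether they start transcripts of those genes was not tested. That of PGAM1, at 99185814 on chromosome 10, lay 11 nts upstream of a start of RRP12, a ribosome biogenesis gene, which stood at 27.3 FPKM. That of the upstream ALDOA call, at 30064239, lay 5 nts downstream of a start of TLCD3B, listed under its older symbol FAM57B at 0.835 FPKM. These are 2 of the 8, against 6.09% of all uaTSSs within 50 nts of a transcript start of a protein-coding gene on their strand. The uaTSS of ENO1 lay in an intron of the noncoding gene ENO1-AS1 on the same strand, listed at 3.0 FPKM.

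The bases at the initiating position were then read at sense and antisense calls. C before the call and A at the call stood at 6 of the 8 uaTSSs, against 29.9% of all uaTSSs, and at 2 of the 4 daTSSs, those of ALDOA and TPI1, against 39.6% of all daTSSs. At the gene TSSs the same letters stood at 3 of 12 (the upstream call of PFKP, TPI1 and the downstream call of LDHA), against 30.3% of all. A pyrimidine followed by a purine, the looser form, stood at 8 of the 12 gene TSSs, against 66.1% of all. These letters were read at single called positions in 1 library.

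Promoter motifs were searched on both strands from 250 nts upstream to 50 nts downstream of each call, counting overlapping matches once. ACGTG or GCGTG was found at 10 of the 12 gene TSSs, against 64.9% of all, and was absent from the upstream call of ALDOA and from TPI1. From 500 nts upstream the share was again 10 of 12, against 81.5% of all. ENO1 held 5 separate matches, PGK1 and the upstream call of LDHA 4 each, and the downstream call of PFKP 3. The median over the 12 was 1.5 matches, against 1 over all gene TSSs. In PGK1 3 of the 4 stood together, beginning 209, 200 and 181 nts upstream of the call.

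CACGTG, the palindromic E-box, contains ACGTG and was found at 2 of the 12, against 9.55% of all gene TSSs. The upstream call of LDHA had 2 copies, which begin 185 and 87 nts upstream, the second followed by another CACGT 73 nts upstream. ENO1 had 1 copy, 214 nts upstream. A search for ACGTG alone found it at 6 of the 12, against 26.8% of all.

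GGGCGG was found at 10 of the 12 gene TSSs, against 72.4% of all. The upstream call of PFKP had 5 separate matches, and TPI1 and the downstream call of LDHA had 4 each. The downstream call of ALDOA and the upstream call of LDHA had none. CCAAT was found at 3 of the 12, against 35.3% of all, at 106 nts upstream in PGK1, 73 nts upstream in PFKP on the opposite strand and 15 nts downstream in ALDOA on the opposite strand. The calls of LDHA thus differed in letters as well as in antisense calls, the upstream one with E-boxes and no GC box core and the downstream one with 4 GC box cores and no E-box. A match is a stretch of letters and does not show that a factor was bound.

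**Figure D4:**
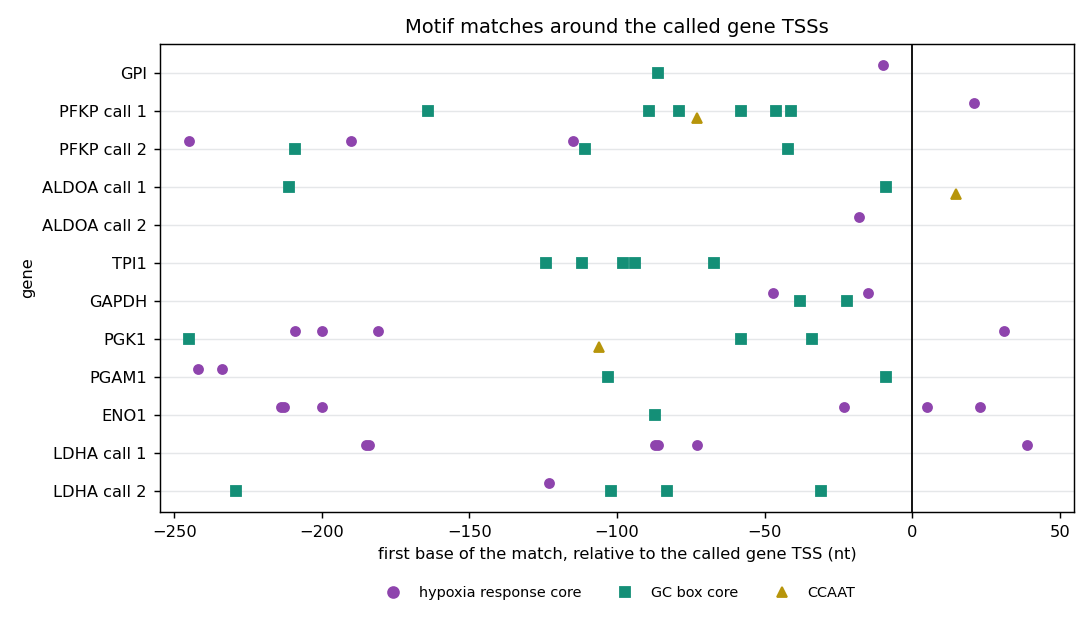
First base of each motif match on either strand, by distance from the called gene TSS (nts, negative upstream, vertical line at the call). Circles are ACGTG or GCGTG, squares GGGCGG and triangles CCAAT. Circles gather at PGK1, ENO1 and the upstream call of LDHA, and squares at PFKP, TPI1 and the downstream call of LDHA.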

How the data were processed

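Start-seq calls were deposited by the authors as single positions in hg19, made from reads trimmed with cutadapt 1.2.1 and aligned with Bowtie 0.12.8. A TSS needed 5 reads at 1 nucleotide, uaTSSs were searched up to 1000 nts upstream and daTSSs up to 2000 nts downstream. A daTSS was dropped when the gene strand within 1000 nts upstream of it had a position with enough reads to be another start. It was also dropped when an annotated TSS lay within 1000 nts on its strand. A missing daTSS therefore need not mean a lack of reads. The deposited scores are all 0, so the reads behind a call are unknown. The deposited expression values are FPKM, which the authors estimated with Cufflinks 2.2.1 after alignment with TopHat2 2.0.4, removal of duplicates and merging of the 3 strand-specific replicates, so depth per library is unknown. The second Start-seq library and the MNase-seq and FAIRE-seq libraries were not analysed here.

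Calls were joined by their shared identifier, and loci by gene name and strand. GRCh37 chromosomes gave the sequence, and GENCODE v44 lifted to that build gave the gene models. A CpG island was a stretch of over 200 nts with at least 50% GC and CpG at over 0.6 of the number expected from base content. Island and motif searches were tested on simulated sequence. The members and gene lists were chosen with earlier results of these data known, so counts stand beside those over all genes or gene TSSs, without a test. Named were all 10 genes, isozymes of at least 1 FPKM, the 3 highest genes of each other list and genes starting within 1000 nts of a call. HK3, HKDC1, PGAM2, GAPDHS, PGK2, ENSG00000285043, POLE4 and the luminal markers were named outside that rule, after their values were seen. SPSB2 was also named outside it, for its call inside the widened TPI1 locus. Alternatives were another pseudocount, filters, windows and joins. Python 3.11.15 was used with numpy 2.4.6, pandas 2.3.3, scipy 1.17.1, numba 0.67.0 and matplotlib 3.10.9.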

Additional observations from a re-analysis of the deposited data

How the results depend on the processing

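Of 20 alternatives, none turned a direction, but several could not have done so. A change of pseudocount keeps the order of genes, and matching older symbols could not lower the number of listed members. Some others are counts of members with no comparison. The number of genes with a called gene TSS was 9 by distance to an annotated start and 7 when loci were not widened, without GAPDH and PGAM1. With 1 call kept per gene, a uaTSS was at 6 of the 9 kept calls and a daTSS at 3 of 9, again 66.7% and 33.3%. The calls of PFKP, ALDOA and LDHA differed in their antisense TSSs, so these counts depend on which call was kept. The daTSS of the upstream ALDOA call is not among the 3. The unchanged shares therefore do not show that the choice is without effect. The median log2(FPKM + 0.1) of the 10 genes was 7.93 and became 7.94 with a pseudocount of 1. The median share of genes below the members was 99.2% over all listed genes, 98.3% over genes of at least 1 FPKM and 98.5% over genes with a called gene TSS. The background share with a uaTSS rose from 53.1% to 58.5% without neighbouring calls within 5000 nts and, in an alternative chosen after seeing the data, to 58.6% in the tenth of genes with the highest FPKM. The background share with a daTSS became 32.9% and 29.4%. With a 100-nt upstream window, hypoxia response cores were at 7 of 12 gene TSSs against 42.5% of all, and with a 500-nt window at 10 of 12 against 81.5%. With stricter islands 9 of 12 lay in an island against 71.0%. No paired analysis was possible because the results come from 1 merged expression column and 1 Start-seq library. No result has an error between replicates, and read depth is unknown, so a missing call, as at HK2, does not show that no transcription starts there.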

Other observations

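Isozymes outside the 10 genes also had called gene TSSs. PKM, the pyruvate kinase gene, had 2, on the minus strand of chromosome 15. The call at 72523553 was at an annotated transcript start, inside a CpG island with 72.0% GC in 100 nts, and had a uaTSS 308 nts upstream. The call at 72521734 lay 329 nts downstream of a start, outside any island, with 43.0% GC and no antisense TSS. HK1, which led the step in which HK2 had no call, was called at 71078647 on chromosome 10, 2 nts downstream of an annotated transcript start, with 79% GC and a uaTSS 162 nts upstream. PFKL had a uaTSS 100 nts upstream of its call and ALDOC one 191 nts upstream. The 2 calls of PFKM had none, nor did the calls of ENO2 and LDHB. Over all gene TSSs, 53.1% had a uaTSS. ENO3, at 2.44 FPKM, had a called gene TSS with a uaTSS 513 nts upstream, although its level was below that of HK2.

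A called gene TSS on the opposite strand inside the widened TPI1 locus, at 6982466 on chromosome 12, lay near the start of SPSB2 (6.87 FPKM) and was left out of the members.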
